A study of Mus musculus with 4 samples.

Results

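The 30 genes described here encode the ESCRT machinery (endosomal sorting complexes required for transport) and the ALIX-syntenin proteins that work with it. They were taken as the rows of the deposited single-cell tables that carry their gene symbols, and all 30 are among the 27998 genes of those tables. The list holds 3 genes of ESCRT-0 (Hgs, Stam, Stam2), 7 of ESCRT-I (Tsg101, Vps37a, Vps37b, Vps37c, Mvb12a, Mvb12b, Ubap1) and 3 of ESCRT-II (Snf8, Vps25, Vps36). It also holds 10 genes of ESCRT-III (Chmp1a, Chmp2a, Chmp2b, Chmp3, Chmp4b, Chmp4c, Chmp5, Chmp6, Chmp7, Ist1), 3 for the ATPase VPS4 and its cofactor (Vps4a, Vps4b, Vta1) and 4 of the ALIX-syntenin group (Pdcd6ip, Ptpn23, Sdcbp, Pdcd6). Vps28 and Chmp1b were not analysed here.

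ESCRT complexes bend and cut membranes away from the cytoplasm: ESCRT-0, -I and -II gather ubiquitin-tagged cargo on endosomes, ESCRT-III filaments constrict the membrane neck, and VPS4 takes the filaments apart. The same ESCRT-III and VPS4 proteins seal the reforming nuclear envelope and sever the bridge between daughter cells at the end of division, where CEP55 brings in TSG101 and ALIX. ALIX (Pdcd6ip) and syntenin (Sdcbp) also load membrane proteins such as syndecans and CD63 into the vesicles that cells release as exosomes.

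Tumours came from 4 Atoh1-cre:SmoM2 littermates taken at postnatal day 20, with 1 library per mouse. In these mice Cre made under the Atoh1 promoter, which is active in granule neuron precursors of the cerebellum, switches on SmoM2, a Smoothened protein that is always active, and medulloblastoma of the SHH (Sonic hedgehog) type forms there. All 4 mice carry both alleles and there was no group without a tumour, so the comparisons are between classes of cells within the same mice. Cells were freed with Accutase for 20 minutes at 37 °C and sorted as 7-AAD-negative, and 10000 were loaded per sample for 10x Chromium 3' libraries. The library of mouse 1 was sequenced more than once.

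The tables hold 5670 cell barcodes and the design text states 4749 cells. Of the barcodes, 4101 passed the filters used here (1363, 888, 680 and 1170 in mice 1 to 4, with median depths of 1699 to 2564 UMIs per cell), where a UMI is a molecular tag that counts 1 captured transcript. Libraries held 1679285 to 3801197 UMIs, and 9 barcode sequences occurred in more than 1 library among the analysed cells. In 502 cells (7.5% to 16.9% of a mouse's cells) markers of differentiating granule cells were raised, and the 2471 cells called progenitor-like (46.8% to 77.1%) are the remaining clusters of the granule lineage. Of the 502, 91 formed a cluster of their own, 44 of them from mouse 4, with a median of 1377 UMIs per cell. Its median Malat1 level was 7.30 UMIs per 10000 and its median mitochondrial share 6.02%, against 178 and 3.11% in the other 411. By markers, a further 153 were astroglia-like, 144 oligodendrocyte-lineage-like and 39 myeloid-like. A cluster of 759 cells (10% to 24.3% of a mouse's cells) led with Mt3 and Fabp7, astroglial genes, but only 1 astroglial marker passed the naming threshold. It had a median of 1108 UMIs per cell and was left unnamed. Its median Malat1 level was 7.66 UMIs per 10000, against 118 in all analysed cells. Of the remaining cells, 28 formed a mixed cluster, 23 of them in mouse 4, and 5 were choroid plexus-like. A progenitor-like cluster of 482 cells held 278 from mouse 3, and another of 397 cells held 294 from mouse 1. Granule lineage markers such as Atoh1 and Zic1 gave 5.99 UMIs per 10000 in myeloid-like cells and 7.09 and 7.93 in both oligodendrocyte-lineage clusters, against 21.4 to 37.2 in each progenitor-like or differentiating cluster. Set against oligodendrocyte-lineage-like and myeloid-like cells, each progenitor-like or differentiating cluster raised at least 7 of 12 granule lineage markers, and each progenitor-like cluster at least 5 of 12 granule progenitor markers, by a log2 difference of 1 or more. Within the lineage no progenitor-like cluster raised more than 2 progenitor markers. The one of 397 cells led with Thrsp, Sbspon and Pdlim3 and raised 1 astroglial marker, and without it Tsg101 lost its call between G2M and G1 cells (adjusted p = 0.0559 by edgeR), while the other 15 calls of members below were made again. None of the 30 genes was used for clustering.

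Together the 30 genes gave 24720 UMIs, a level of 2418 ± 48.9 CPM (counts per 1000000 UMIs of the cells summed in a mouse, mean ± SD, n = 4 mice). Mice 1 to 4 stood at 2473, 2365, 2444 and 2391 CPM, so the summed level differed little between tumours. ESCRT-III took 31.7% of these UMIs, ESCRT-I 30.5%, the ALIX-syntenin genes 15.5%, VPS4 and its cofactor 9.53%, ESCRT-II 8.76% and ESCRT-0 4.01%. Each captured transcript gives 1 tag near its 3' end, so CPM are compared between genes here without a correction for transcript length. Whether capture and the assignment of reads differ between genes was not checked, apart from overlaps on the same strand.

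The highest level belonged to Vps37b, which encodes an interchangeable subunit of ESCRT-I and alone gave 16.7% of the UMIs. It stood at 399, 398, 458 and 391 CPM in mice 1 to 4 (411 ± 31.0, SD), and its lowest mouse lay above the highest mouse of every other member. Chmp2a, an ESCRT-III subunit that recruits VPS4, followed at 211 ± 19.4 CPM. Tsg101, the ESCRT-I subunit that binds ubiquitin, ALIX and CEP55, stood at 207 ± 13.3 CPM. Pdcd6, the calcium-binding ALIX partner ALG-2, stood at 196 ± 17.3 CPM. The ranges of these last 3 genes over mice overlapped each other. Chmp5 (159 ± 20.1 CPM), whose protein binds the VPS4 cofactor VTA1, overlapped Pdcd6, and its lowest mouse lay only just above the highest mouse of the next gene, Sdcbp.

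**Figure D1:**
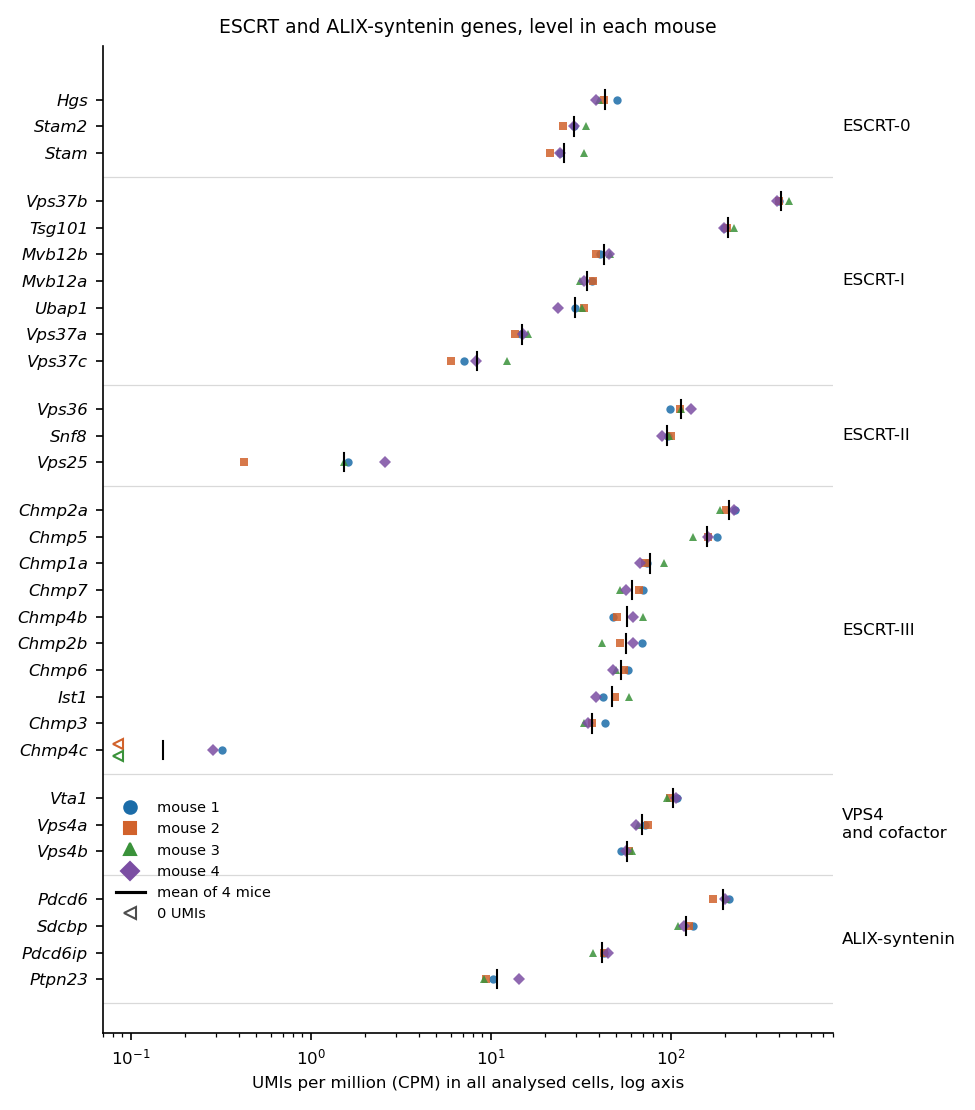
Level of each of the 30 genes in all analysed cells of each mouse, in CPM on a log axis, grouped by complex. Vps37b lies highest at 411 CPM on average, and Vps25 (17 UMIs) and Chmp4c (2 UMIs) lie lowest.

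Sdcbp, the syntenin gene, stood at 133, 127, 111 and 119 CPM in mice 1 to 4. The ALIX gene Pdcd6ip stood at 42.5, 42.9, 36.9 and 44.7 CPM in the same mice, and Ptpn23, which encodes the ALIX relative HD-PTP, at 10.3, 9.44, 9.21 and 14.3 CPM. The order syntenin, ALIX, HD-PTP held in every mouse without overlap. Hgs, the ESCRT-0 subunit that first binds ubiquitinated cargo, stood at 50.6, 42.9, 39.9 and 38.7 CPM. Chmp4b, the main filament-forming ESCRT-III subunit, stood at 47.7, 50.2, 69.9 and 61.6 CPM. Chmp7, which starts ESCRT-III assembly at the nuclear envelope, stood at 70.6, 66.5, 52.2 and 56.4 CPM. Hgs, Chmp4b and Chmp7 each differed between mice by less than a factor of 2, and they ranked 18, 14 and 12 of the 30.

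UMI levels of related genes were unequal in several cases. Vps37b exceeded Vps37a by 27.5 ± 1.47 times and Vps37c by 51.7 ± 12.4 times, the ratio to Vps37a lying between 25.7 and 29.0 in each mouse. Chmp2a exceeded Chmp2b by 3.83 ± 0.518 times and Pdcd6ip exceeded Ptpn23 by 3.95 ± 0.599 times. The ATPase genes were close: Vps4a was at 71.9, 74.6, 66.0 and 64.4 CPM in mice 1 to 4, and Vps4b at 52.9, 58.8, 61.4 and 56.4 CPM, a ratio of 1.21 ± 0.128 that was above 1 in all 4 mice. Stam and Stam2 (ratio 0.875 ± 0.0685) were close as well, as were Mvb12b and Mvb12a (1.25 ± 0.205). Vps25 overlaps Ramp2 on the same strand, so reads of these 2 genes may not have been told apart, and the 17 UMIs of this ESCRT-II subunit stand beside 973 of Snf8 and 1176 of Vps36. Stam2 and Sdcbp also overlap another annotated gene on their strand (Gm13548 and Gm37689).

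Promoter windows from RefSeq (build GRCm38.p6, 250 bases before to 50 after the annotated start, read along the gene) were found for 23 of the 30 genes. The 5 shown belong to members that differed between cell phases or states below, and are shown so that the sequence stands beside those values. No window was found for Vps37b (chr5:124004641-124032270, minus strand), Chmp7 (chr14:69717000-69732541, minus strand) or Sdcbp (chr4:6365650-6408423, plus strand). Capitals mark matches to NRF1 (GCGC, any base, then TGCGC), the GC box (GGGCGG), an ETS site (CCGGAAGT) or the CRE (TGACGTCA), searched on both strands and printed as they read along the gene.
Vps36, chr8:22192583-22192882, plus strand: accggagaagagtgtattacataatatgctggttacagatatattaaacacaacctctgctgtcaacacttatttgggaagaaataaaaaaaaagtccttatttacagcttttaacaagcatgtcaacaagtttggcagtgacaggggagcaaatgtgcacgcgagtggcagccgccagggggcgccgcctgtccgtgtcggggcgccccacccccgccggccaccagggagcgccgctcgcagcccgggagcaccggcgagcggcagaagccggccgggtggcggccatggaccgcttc
Tsg101, chr7:46919920-46920219, minus strand: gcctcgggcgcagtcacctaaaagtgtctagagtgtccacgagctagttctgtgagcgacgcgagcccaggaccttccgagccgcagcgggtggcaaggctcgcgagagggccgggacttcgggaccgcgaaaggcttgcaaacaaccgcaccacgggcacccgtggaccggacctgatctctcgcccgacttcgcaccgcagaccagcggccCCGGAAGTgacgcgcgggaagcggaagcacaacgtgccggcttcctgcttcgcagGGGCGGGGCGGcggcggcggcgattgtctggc
Chmp5, chr4:40948303-40948602, plus strand: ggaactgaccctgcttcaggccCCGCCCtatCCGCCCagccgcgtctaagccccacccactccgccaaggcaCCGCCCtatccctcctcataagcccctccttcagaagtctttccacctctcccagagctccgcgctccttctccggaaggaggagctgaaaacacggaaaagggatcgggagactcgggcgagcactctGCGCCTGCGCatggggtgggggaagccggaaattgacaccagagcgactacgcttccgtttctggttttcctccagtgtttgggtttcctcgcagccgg
Chmp2a, chr7:13034728-13035027, minus strand: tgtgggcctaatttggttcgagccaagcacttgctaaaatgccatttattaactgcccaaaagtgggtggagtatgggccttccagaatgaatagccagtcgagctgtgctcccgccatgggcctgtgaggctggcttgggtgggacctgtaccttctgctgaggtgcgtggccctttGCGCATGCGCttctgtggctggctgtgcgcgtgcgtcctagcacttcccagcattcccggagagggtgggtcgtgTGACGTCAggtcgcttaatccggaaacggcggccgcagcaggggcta
Chmp1a, chr8:123212739-123213038, minus strand: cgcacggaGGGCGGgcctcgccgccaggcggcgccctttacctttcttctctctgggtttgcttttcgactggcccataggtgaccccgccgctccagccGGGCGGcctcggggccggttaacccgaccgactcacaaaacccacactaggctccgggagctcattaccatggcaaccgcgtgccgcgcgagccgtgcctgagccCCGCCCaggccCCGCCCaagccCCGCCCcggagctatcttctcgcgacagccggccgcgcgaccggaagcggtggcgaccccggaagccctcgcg
The Vps36 window held none of these matches. The Tsg101 window held an ETS match 37 bases before the start and a pair of overlapping GC boxes after it. The Chmp5 and Chmp2a windows each held an NRF1 match, 49 and 72 bases before the start, and Chmp2a held the CRE match of the set, which begins 3 bases after the start. GENCODE starts the plus-strand gene Chmp5 at position 40948407, so its NRF1 match lies within the gene annotated there. The Chmp1a window held 5 GC boxes. GENCODE starts this minus-strand gene at position 123212763, so of the window only 123212739 to 123212763 lies within the gene annotated there. NRF1 matches were found for 6 of the 23 genes, and 4.60% of 32851 single promoter windows held one. GC boxes were found for 14 genes (35.7% of windows), ETS matches for 2 (3.89%), the CRE for 1 (1.79%) and the CHR element TTTGAA of cell cycle genes for 3 (17.9%). Chmp3 and Vps37c have 2 windows each and count when either holds a match, so the counts of genes and the shares of windows are not on the same base. The matches are a description of these letters and say nothing of binding.

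The first question was how the genes differ between cell cycle phases of the progenitor-like tumour cells. Phases were called from lists of S and G2M genes that hold none of the 30, giving 918 G2M, 793 S and 760 G1 cells. Vps36, the ESCRT-II subunit that binds endosomal lipid and ubiquitin, and Tsg101 were higher in G2M than in G1 cells, and Vps37b was lower in both S and G2M cells than in G1 cells. No other member passed the test in these comparisons.

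Vps36 stood at 116, 148, 124 and 172 CPM in G2M cells of mice 1 to 4, against 81.7, 90.6, 109 and 90.1 CPM in G1 cells. It was higher in G2M cells of all 4 mice and the ranges did not overlap. The log2 fold change was 0.63 ± 0.14 (SE) with an adjusted p of 0.000191 (edgeR's quasi-likelihood test on sums per mouse, adjusted over all genes tested). S cells stood at 91.7, 110, 102 and 103 CPM, between both other phases in mice 1, 2 and 4 and below G1 cells in mouse 3. Tsg101 stood at 207, 263, 234 and 169 CPM in G2M cells, against 179, 130, 218 and 175 CPM in G1 cells. It was higher in G2M cells of mice 1, 2 and 3 and the ranges overlapped. Its log2 fold change was 0.33 ± 0.11 (edgeR adjusted p = 0.0273), and without mouse 2 it was 0.13 with an adjusted p of 0.557.

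Vps37b stood at 383, 416, 421 and 374 CPM in G2M cells, against 482, 478, 512 and 497 CPM in G1 cells. Every G2M value lay below every G1 value, with a log2 fold change of -0.29 ± 0.08 (edgeR adjusted p = 0.00198). In S cells it stood at 398, 368, 463 and 386 CPM, again below all G1 values, with a log2 fold change of -0.31 ± 0.08 (edgeR adjusted p = 0.00121).

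Of the 25 members tested, 2 were called higher and 1 lower in G2M than in G1 cells, where 21.7% of all 6451 genes tested were called (11.8% higher, 9.91% lower). The members' median log2 fold change was -0.06 against -0.03 for all genes tested. In S against G1 cells 1 of 25 was called, where 16.8% of 5843 genes were, and the medians were -0.05 and -0.02 (9.67% of genes were called higher and 7.1% lower). At an unadjusted p under 0.05 edgeR found 7 members in G2M and 4 in S against G1 cells. The share of all genes at that unadjusted threshold is not given in this report, so such counts cannot be set against it. Vps37a, Vps37c, Vps25, Chmp4c and Ptpn23 did not pass the filter on low counts. The ESCRT-III genes gave 0 calls of 9 tested in either comparison by edgeR or DESeq2 (0 and 2 at an unadjusted p under 0.05), and in G2M against G1 cells their log2 fold changes lay within -0.19 and 0.13. Chmp4b stood at 44.1, 45.2, 69.2 and 67.4 CPM in G2M cells, against 42.2, 53.9, 42.0 and 62.8 CPM in G1 cells. Vps4a stood at 61.5, 68.6, 61.0 and 68.4 CPM in G2M cells, against 71.2, 49.0, 58.8 and 65.5 CPM in G1 cells. Pdcd6ip stood at 56.9, 43.6, 38.7 and 50.3 CPM in G2M cells, against 39.5, 63.7, 42.0 and 65.5 CPM in G1 cells. The ranges of these 3 genes overlapped between phases. In G2M against G1 cells their log2 fold changes were 0.13 ± 0.20 for Chmp4b, 0.07 ± 0.18 for Vps4a and -0.06 ± 0.21 for Pdcd6ip.

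**Figure D2:**
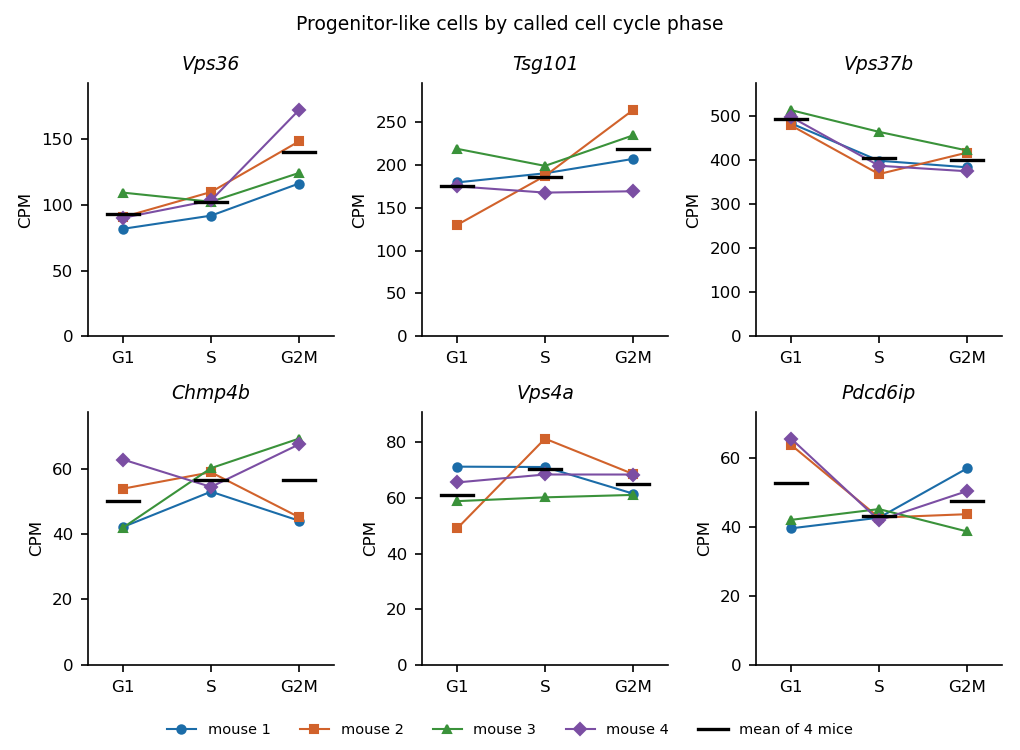
Level in G1, S and G2M cells of the progenitor-like class for 6 members, in CPM, with a line per mouse and a bar at the mean. Vps36 lies higher in G2M cells of every mouse, Vps37b lower in S and G2M cells, and the lines of Chmp4b, Vps4a and Pdcd6ip cross.

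Mvb12b, an ESCRT-I subunit named after its values were seen, was not called but its ranges did not overlap, at 38.3, 26.5, 40.7 and 39.9 CPM in G2M cells, against 46.1, 58.8, 54.6 and 46.4 CPM in G1 cells (log2 fold change -0.45 ± 0.22, edgeR adjusted p = 0.140). Chmp7, Vps4b, Sdcbp, Hgs and Ptpn23 had overlapping ranges. Chmp7 stood at 65.0, 53.0, 48.8 and 40.8 CPM in G2M cells, against 68.5, 49.0, 42.0 and 71.0 CPM in G1 cells. Vps4b stood at 58.0, 74.8, 75.3 and 54.1 CPM in G2M cells, against 59.3, 46.5, 92.4 and 81.9 CPM in G1 cells. Sdcbp stood at 125, 128, 99.7 and 125 CPM in G2M cells, against 115, 122, 105 and 106 CPM in G1 cells. None of these 3 genes was called. Hgs, at 47.6, 34.3, 50.9 and 40.8 CPM in G2M cells against 56.7, 41.6, 37.8 and 43.7 CPM in G1 cells, and Ptpn23, at 12.8, 6.23, 10.2 and 13.3 CPM in G2M cells against 10.5, 17.1, 12.6 and 19.1 CPM in G1 cells, were lower in G2M cells of 3 of the 4 mice each.

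Depth differed with the phase, at medians of 2158, 2622 and 2883 UMIs per cell in G1, S and G2M cells, and its part in these results was not tested beyond phases called on cells thinned to 1000 UMIs. With that phase call all 3 members called in G2M against G1 cells were called again. DESeq2 on the same sums called 0 members in either comparison (8.05% and 5.9% of genes were called by it), with an adjusted p of 0.0807 for Vps36. Without the mouse as a block edgeR called Vps36 alone in G2M and 0 members in S against G1 cells.

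Of 53 partner genes outside the phase lists 28 were tested in the same cells, and 6 were called higher and 2 lower in G2M than in G1 cells. In the list of midbody and abscission genes 3 of 5 tested were called, all higher. Cep55, which brings TSG101 and ALIX to the midbody, stood at 29.0, 51.4, 36.6 and 60.8 CPM in G2M cells, against 0, 2.45, 0 and 0 CPM in G1 cells. The G1 level rests on 1 UMI, and the pooled ratio of G2M over G1 was 81.4 with a counting interval of 14.4 to 3236 (exact, 95%, counting error only; edgeR adjusted p = 9.15e-14). Incenp of the chromosomal passenger complex (log2 fold change 3.46 ± 0.22) and Racgap1 of the centralspindlin complex (2.75 ± 0.12) were higher in all 4 mice. Banf1, which helps the nuclear envelope reform (0.63 ± 0.09), and the ubiquitin gene Ubb (0.46 ± 0.04) were higher too. The tetraspanin genes Cd81 (-0.48 ± 0.07) and Cd63 (-0.26 ± 0.05), frequent on released vesicles, were lower. In S against G1 cells 21 of these partner genes were tested, and 2 were called higher and 3 lower. Racgap1 (1.02 ± 0.17) and Emd (0.33 ± 0.12) were higher. Cd63 (-0.20 ± 0.05) and Ubb (-0.15 ± 0.04) were among those lower. In the list of ubiquitin and endosomal sorting genes 2 of 8 tested were called lower, of which only Ubb is named here.

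The next question was how the genes differ between differentiating and progenitor-like tumour cells. Of the 30 genes, 6 were higher in differentiating cells: Chmp7, Chmp1a, Chmp5 and Chmp2a of ESCRT-III, and Tsg101 and Vps37b of ESCRT-I. The 6 are out of 26 tested, and edgeR called 0 lower (1 at an unadjusted p under 0.05, Vps36, and 0 by DESeq2). Vps37c, Vps25, Chmp4c and Ptpn23 did not pass the filter on low counts. Over all 7502 genes tested 18% were called, 9% higher and 9.01% lower. The members' median log2 fold change was 0.14 against -0.01 for all genes tested. The summed level of the members was 2914, 2715, 2876 and 2628 CPM in differentiating cells of mice 1 to 4, against 2452, 2328, 2423 and 2312 CPM in progenitor-like cells. The sum was higher in differentiating cells of every mouse and its ranges did not overlap. It includes the 6 members called, so it is not a result separate from those calls.

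Chmp7 stood at 106, 113, 148 and 68.2 CPM in differentiating cells, against 71.0, 55.8, 45.2 and 54.8 CPM in progenitor-like cells. It was higher in every mouse, most in mouse 3 and least in mouse 4, whose value lay within the range of the progenitor-like cells. The log2 fold change was 0.74 ± 0.18 (edgeR adjusted p = 0.000374). Chmp5 stood at 258, 216, 123 and 188 CPM in differentiating cells, against 171, 150, 128 and 142 CPM in progenitor-like cells. It was higher in mice 1, 2 and 4 and slightly lower in mouse 3, with a log2 fold change of 0.47 ± 0.12 (edgeR adjusted p = 0.000901).

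Chmp1a, which works with IST1 late in ESCRT-III assembly, stood at 94.9, 96.4, 123 and 89.7 CPM in differentiating cells, against 72.7, 66.8, 92.3 and 58.5 CPM in progenitor-like cells. It was higher in every mouse with overlapping ranges, and its log2 fold change was 0.51 ± 0.17 (edgeR adjusted p = 0.0179). The adjusted p was 0.0654 without mouse 2 and 0.222 without mouse 4. Its call was lost under 6 of 13 alternatives, among them cells with at most 5% mitochondrial UMIs. Chmp2a stood at 228, 244, 246 and 249 CPM in differentiating cells, against 216, 179, 184 and 202 CPM in progenitor-like cells. The ranges did not overlap, and the log2 fold change was 0.30 ± 0.11 (edgeR adjusted p = 0.0320). This call was lost under 9 of 13 alternatives. Among them were cells with at most 5% mitochondrial UMIs and the removal of cells under 30 Malat1 UMIs per 10000. The edgeR adjusted p was 0.229 without mouse 2 and 0.225 without mouse 4.

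Tsg101 stood at 212, 227, 393 and 246 CPM in differentiating cells, against 193, 204, 219 and 169 CPM in progenitor-like cells. It was higher in every mouse, most in mouse 3, with a log2 fold change of 0.38 ± 0.11 (edgeR adjusted p = 0.00434) and an adjusted p of 0.238 without mouse 4. Its call was lost under 5 of 13 alternatives, among them cells with at most 5% mitochondrial UMIs. Vps37b stood at 524, 496, 701 and 467 CPM in differentiating cells, against 419, 417, 455 and 399 CPM in progenitor-like cells. Every differentiating value lay above every progenitor-like one, with a log2 fold change of 0.31 ± 0.09 (edgeR adjusted p = 0.00426).

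**Figure D3:**
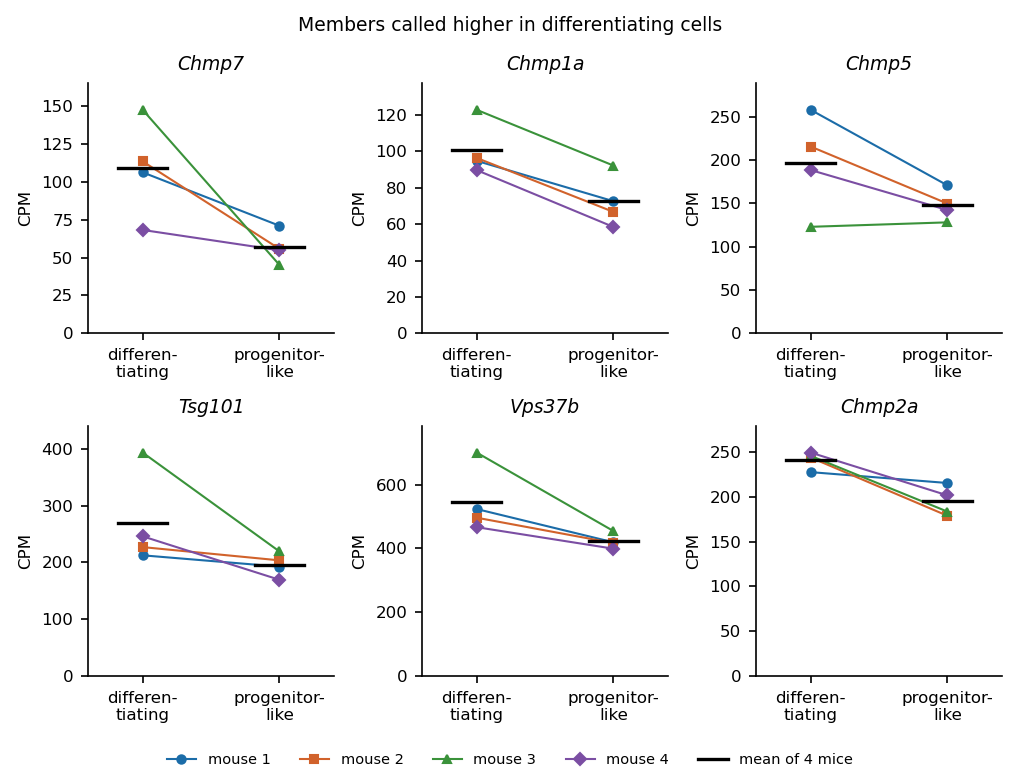
Level of the 6 members called higher in differentiating than in progenitor-like cells, in CPM, with a line per mouse and a bar at the mean. The line falls from left to right in every mouse and gene, apart from Chmp5 in mouse 3.

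Among the members that were not called, Hgs stood at 68.3, 65.2, 49.2 and 35.9 CPM in differentiating cells, against 49.3, 42.1, 42.4 and 40.7 CPM in progenitor-like cells. Sdcbp stood at 175, 122, 123 and 117 CPM in differentiating cells, against 121, 124, 99.8 and 114 CPM in progenitor-like cells. Pdcd6ip stood at 41.7, 34.0, 24.6 and 43.1 CPM in differentiating cells, against 46.8, 48.6, 41.4 and 50.1 CPM in progenitor-like cells. Hgs and Sdcbp were each higher in 3 of the 4 mice and Pdcd6ip was lower in all 4, with log2 fold changes that missed the threshold. Chmp4b stood at 68.3, 34.0, 86.0 and 70.0 CPM in differentiating cells, against 46.4, 51.9, 60.3 and 62.3 CPM in progenitor-like cells. Vps4a stood at 94.9, 79.4, 98.3 and 64.6 CPM in differentiating cells, against 67.7, 67.4, 60.3 and 67.9 CPM in progenitor-like cells. Vps4b stood at 68.3, 76.6, 12.3 and 53.8 CPM in differentiating cells, against 55.1, 59.7, 72.5 and 58.0 CPM in progenitor-like cells. Vps4b had its lowest value in the 51 differentiating cells of mouse 3, and the ranges of all these genes overlapped. VPS4 and its cofactor gave 0 calls of 3, as did ESCRT-0 and the ALIX-syntenin genes, with 0 at an unadjusted p under 0.05, and ESCRT-II gave 0 of 2. Without the mouse as a block edgeR called 1 member in place of 6, Chmp7, and DESeq2 called 2, Chmp7 and Vps37b. Of all 7502 genes 625 were called without the block and 654 (8.72%) by DESeq2.

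Differentiating cells were called G1 more often (55.0% of them, against 30.8% of progenitor-like cells), so both classes were also compared among their G1 cells alone, with 276 and 760 cells. There edgeR called 2 of 20 members tested higher and 0 lower (0 lower at an unadjusted p under 0.05, and 0 lower by DESeq2), against 15.4% of 4036 genes called (8.6% higher, 6.84% lower). The members' median log2 fold change was 0.20 against -0.01 for all genes tested, and 10 members did not pass the filter on low counts. Tsg101 stood at 226, 278, 367 and 270 CPM in differentiating G1 cells, against 179, 130, 218 and 175 CPM in progenitor-like G1 cells. The ranges did not overlap, with a log2 fold change of 0.68 ± 0.16 (edgeR adjusted p = 0.000345). Chmp7 stood at 86.3, 125, 196 and 82.3 CPM in differentiating G1 cells, against 68.5, 49.0, 42.0 and 71.0 CPM in progenitor-like G1 cells. Its ranges did not overlap either, with a log2 fold change of 0.79 ± 0.25 (edgeR adjusted p = 0.0149) and an adjusted p of 0.257 without mouse 2 and 0.0991 without mouse 3. Without the mouse as a block Tsg101 alone was called. The other 4 members called over all phases were tested and not called here, with log2 fold changes between 0.11 and 0.35, and whether the fold changes differ between the comparisons was not tested.

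Of the 59 partner genes 39 were tested in differentiating against progenitor-like cells, and edgeR called 0 higher (2 at an unadjusted p under 0.05) and 9 lower, all from the list of midbody and abscission genes, of which 12 were tested. Cep55 was at 4.21 ± 3.25 CPM in differentiating cells, against 22.8 ± 9.97 CPM in progenitor-like cells (SD, n = 4). Its log2 fold change of -2.41 ± 0.49 was the largest of the 9, followed by Birc5 (-1.94 ± 0.15), Incenp (-1.77 ± 0.22), Cdca8 (-1.62 ± 0.15) and Aurkb (-1.62 ± 0.21). Among G1 cells alone 0 of the 15 partner genes tested were called. In that G1 comparison 2 of the 15 had an unadjusted edgeR p under 0.05, and 13 of the 14 midbody and abscission genes did not pass the filter on low counts, so the comparison says nothing of those.

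The remaining comparisons set the other cell types of the tumour against the granule lineage, that is, progenitor-like and differentiating cells summed (2973 cells). Astroglia-like cells gave 0 calls of 25 members tested by edgeR and 0 by DESeq2, where edgeR called 5.1% of 6922 genes (3.19% higher, 1.91% lower) and DESeq2 2.8%. The members' median log2 fold change was 0.09 against -0.12 for all genes tested. At an unadjusted p under 0.05 edgeR found 4: Chmp2a, Chmp4b and Vps4a higher and Pdcd6ip lower. Chmp4b stood at 46.7, 84.6, 288 and 72.1 CPM in astroglia-like cells of mice 1 to 4, against 48.5, 48.6, 62.1 and 63.9 CPM in granule-lineage cells. The value of mouse 3 comes from 11 cells. Pdcd6ip stood at 9.34, 0, 36.0 and 32.0 CPM in astroglia-like cells, against 46.3, 45.9, 40.2 and 48.6 CPM in granule-lineage cells, and rests on 6 UMIs. The class summed to 318908 UMIs against 8389500 in the granule lineage, and 3 counts over it stand for 9.41 CPM. Vps37a, Vps37c, Vps25, Chmp4c and Ptpn23 did not pass the filter on low counts in astroglia-like or in myeloid-like against granule-lineage cells. The astroglia-like clusters also held 17.5 and 19.0 granule marker UMIs per 10000, against 21.4 to 37.2 in the granule-lineage clusters. The part of this in the result was not tested. Signs of RNA quality differed as well. Median Malat1 levels were 12.02 UMIs per 10000 in astroglia-like and 141 in granule-lineage cells. The astroglia-like median lies under the 30 used later as a cut-off. Median mitochondrial shares were 5.13% and 3.00%, and median depths 1645 and 2470 UMIs per cell. With at most 5% mitochondrial UMIs, which left out mouse 3, 0 members were called. The part of Malat1 level and depth in the result was not tested. Of the partner genes tested, 2 of 37 were called, both higher. The syndecan gene Sdc4 stood at 43.1 ± 10.3 CPM in astroglia-like cells and 1.04 ± 0.615 CPM in granule-lineage cells (log2 fold change 5.39 ± 0.65). Rab31, a small GTPase gene of vesicle traffic, had a log2 fold change of 2.04 ± 0.55.

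In oligodendrocyte-lineage-like cells Vps37b was lower than in the granule lineage. It stood at 197, 149, 188 and 185 CPM in oligodendrocyte-lineage-like cells of mice 1 to 4, against 430, 432, 472 and 413 CPM in granule-lineage cells. No ranges overlapped, the log2 fold change was -1.32 ± 0.23 (edgeR adjusted p = 2.31e-06) and the call held under the 12 alternatives run. Signs of RNA quality differed too: median mitochondrial shares were 6.52% in oligodendrocyte-lineage-like and 3.00% in granule-lineage cells, median Malat1 levels 701 and 141 UMIs per 10000, and median depths 1476 and 2470 UMIs per cell. Their part in the result was not tested, and too few cells were left for a stricter mitochondrial filter. Vps4b was also called, at 0, 57.3, 0 and 8.03 CPM in oligodendrocyte-lineage-like cells, against 56.4, 62.8, 68.2 and 57.2 CPM in granule-lineage cells. Its level in these cells rests on 6 UMIs, and the call (log2 fold change -1.60 ± 0.55, edgeR adjusted p = 0.0240) was lost without mouse 1, 3 or 4 (adjusted p of 0.0915, 0.0594 and 0.252). Of the 6 UMIs 5 came from mouse 2, without which the log2 fold change was -3.63 (edgeR adjusted p = 0.00403). The other ATPase gene, Vps4a, stood at 65.5, 57.3, 161 and 48.2 CPM in oligodendrocyte-lineage-like cells, against 70.4, 69.7, 63.0 and 67.2 CPM in granule-lineage cells, with overlapping ranges. In all edgeR called 2 of 26 members tested lower and 0 higher (2 higher at an unadjusted p under 0.05), against member and all-gene median log2 fold changes of -0.06 and -0.13. DESeq2 called 1 (14.6% of genes were called by it), and Vps37c, Vps25, Chmp4c and Ptpn23 did not pass the filter on low counts. Of all 7319 genes tested 21.9% were called (11.4% higher, 10.5% lower). Of these 144 cells, 119 formed a precursor-type cluster led by Ptprz1, Cspg5 and Lhfpl3. The other 25 had Cnp and Enpp6 among their leading genes, and 22 of those came from mouse 4.

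Chmp4b stood at 65.5, 34.4, 161 and 72.3 CPM in oligodendrocyte-lineage-like cells, against 48.5, 48.6, 62.1 and 63.9 CPM in granule-lineage cells. Tsg101 stood at 153, 160.3, 161 and 217 CPM in oligodendrocyte-lineage-like cells, against 195, 208, 232 and 185 CPM in granule-lineage cells. Sdcbp stood at 87.4, 115, 188 and 96.3 CPM in oligodendrocyte-lineage-like cells, against 126, 123, 101 and 114 CPM in granule-lineage cells. The ranges overlapped for Chmp4b, Tsg101 and Sdcbp, and none of them was called.

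Partner genes were called in both directions in these cells, with 4 called higher and 6 lower of 37 tested. The syndecan gene Sdc3 (log2 fold change 3.59 ± 0.40), Rab31 (2.95 ± 0.43) and the tetraspanin genes Cd9 (1.80 ± 0.19) and Cd81 (1.24 ± 0.18) were higher. Kif23 (-1.76 ± 0.58), Aurkb (-1.29 ± 0.41), Emd (-0.97 ± 0.31), Banf1 (-0.92 ± 0.24) and Cdca8 (-0.78 ± 0.29) led those that were lower. Cd9 was at 2340 ± 1055 CPM in oligodendrocyte-lineage-like cells and 619 ± 69.8 CPM in granule-lineage cells (SD, n = 4).

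Myeloid-like cells carried the highest Sdcbp level of the named classes. Their cluster led with S100a8, Lyz2 and Tyrobp, followed by C1qb, C1qc and C1qa. Microglia markers gave 264 UMIs per 10000, neutrophil markers 252 and macrophage or monocyte markers 120, so the class may pool several myeloid types. Median Malat1 levels were 34.2 UMIs per 10000 in myeloid-like and 141 in granule-lineage cells. Median depths were 1236 and 2470 UMIs per cell. The part of cell mixture and depth in the results was not tested. Sdcbp stood at 537, 998, 361 and 591 CPM in myeloid-like cells of mice 1 to 4, against 126, 123, 101 and 114 CPM in granule-lineage cells. Every myeloid-like value lay above every granule-lineage one, on 40 UMIs from 39 cells (14, 7, 5 and 13 in mice 1 to 4). The log2 fold change was 2.05 ± 0.41 (edgeR adjusted p = 2.14e-05), and 0.0994 was the adjusted p after cells under 30 Malat1 UMIs per 10000 were left out. Vps37b stood at 44.8, 0, 0 and 148 CPM in myeloid-like cells, on 5 UMIs, against 430, 432, 472 and 413 CPM in granule-lineage cells. It was lower in all 4 mice, with a log2 fold change of -2.83 ± 0.58 (edgeR adjusted p = 3.50e-05). Mouse 4 held 4 of the 5 UMIs, and without it the log2 fold change was -4.58.

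The median log2 fold change of all 6222 genes tested was -1.07 here with TMM scaling and -0.83 with median-ratio scaling. Relative to the TMM median, Sdcbp lay at 3.11 and Vps37b at -1.76. These were the 2 called of 25 members tested (1 higher, 1 lower), where 14.8% of genes were called (4.02% higher, 10.8% lower). Of all calls 27.1% were higher with TMM and 38.2% with median-ratio scaling. Stam2, Ubap1, Vps25 and Chmp4c had 0 UMIs in the 66727 of the myeloid-like class, which allows levels of up to 45.0 CPM (3 counts, counting error only), above the levels of these genes in the granule lineage. Of the partner genes 4 of 32 tested were called, all lower. Aurkb had 0 UMIs in myeloid-like cells and was at least 2.17-fold lower there, set against 3 counts over the class. Racgap1 had 2 UMIs there, a ratio of 0.150 to the granule lineage with an exact counting interval of 0.0181 to 0.542. Nedd4, a ubiquitin ligase gene (log2 fold change -2.69 ± 0.49), and Banf1 (-2.69 ± 0.65) were the other two.

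**Figure D4:**
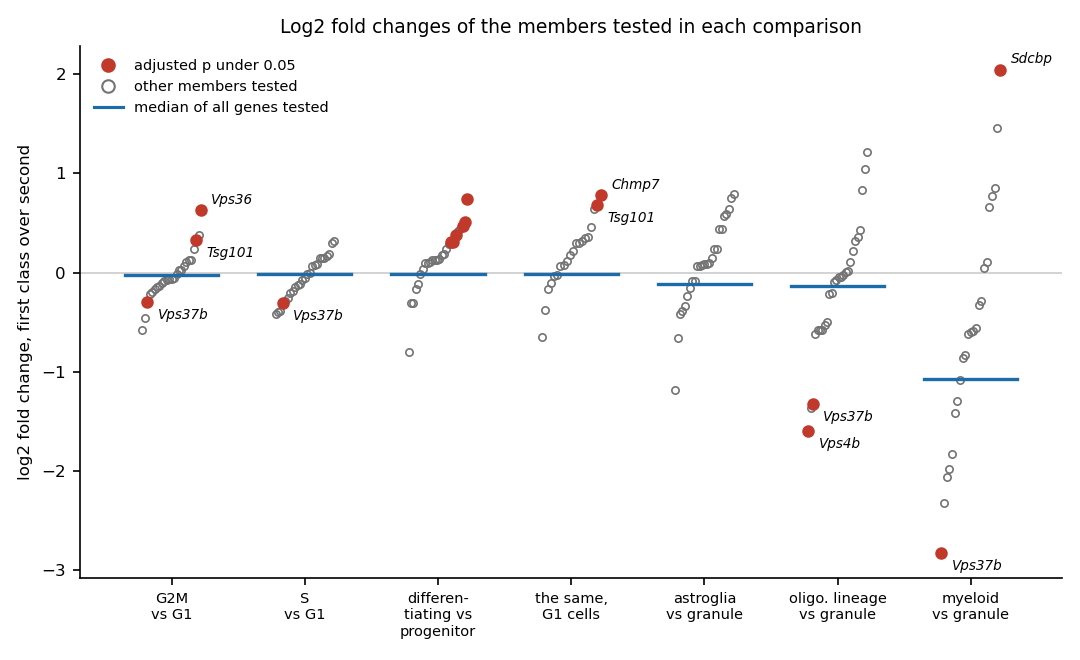
Log2 fold changes of the members tested in each comparison, the first-named class over the second, with the median of all genes tested as a bar and members past an adjusted p of 0.05 filled. Stam2 and Ubap1, with 0 UMIs in myeloid-like cells, are left out of the last column, where the median of all genes lies at -1.07.

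Set side by side, the level of Vps37b was 48.1 ± 69.7 CPM in myeloid-like, 179 ± 21.0 in oligodendrocyte-lineage-like, 342 ± 83.9 in astroglia-like, 547 ± 105 in differentiating and 423 ± 23.3 in progenitor-like cells. The ranges over mice did not overlap between oligodendrocyte-lineage-like cells and either granule-lineage class, while the astroglia-like range overlapped both. The level of Sdcbp was 622 ± 270 CPM in myeloid-like cells and between 115 and 142 CPM on average in the other 4 classes, whose ranges overlapped.

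**Figure D5:**
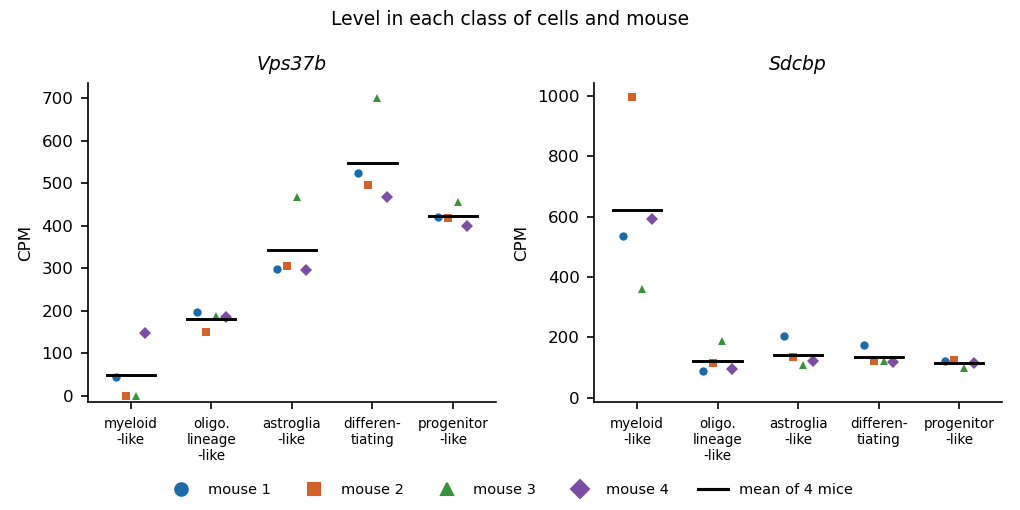
Level of Vps37b and Sdcbp in each class of cells, in CPM, with a point per mouse and a bar at the mean. Vps37b lies lowest in myeloid-like and oligodendrocyte-lineage-like cells, and Sdcbp lies at 361 CPM or more in every mouse's myeloid-like cells.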

How the data were processed

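Single-cell RNA of 4 tumours was analysed from raw UMI counts per gene and cell barcode, deposited by the authors with 1 table per mouse. Cell Ranger 2.0.2, Seurat and the mm10 build are named per the submitters' processing notes, and the annotation release is not given in the sources used here. Barcodes with at least 500 genes and at most 10% mitochondrial UMIs (4137) were kept, and Scrublet marked 36 of them (0.870%) as doublets, which were removed. Cells were scaled to 10000 UMIs and clustered with scanpy 1.11.5 (2000 variable genes, 30 components, 15 neighbours, Leiden resolution 1), leaving out the 30 genes, their partner genes, phase genes, mitochondrial and ribosomal genes. Clusters of other cell types were named from marker lists when at least 3 markers stood at a log2 difference of 1 or more in at least 10% of cells. Of the clusters left, those with a median log2 difference of differentiating granule markers of 0.5 or more were called differentiating, and progenitor-like is the remainder whose leading genes held no more markers of another type than of the granule lineage. Those thresholds were set after seeing the data, and the names may differ from those of the study.

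For each class the UMIs of a mouse's cells were added up per gene, and the sums were compared with edgeR 4.0.16 in R 4.3.3 (TMM scaling, filterByExpr, quasi-likelihood test, mouse as a block, Benjamini-Hochberg over all genes tested, threshold 0.05). The SE is the log2 fold change divided by the square root of the F statistic. Each mouse gives both sums of a comparison, so sums of a mouse are paired by animal, and their deviations correlated at 0.0226 to 0.483. DESeq2 1.42.0, median-ratio scaling, no low-count filter, no block, each mouse left out, stricter cell filters, phases on thinned cells and a clustering with phase scores regressed out were tried. The script was tested on simulated data, with 100 genes changed by a log2 fold change of 1 in each comparison. It called 22% of them in the astroglia-like, 26% in the oligodendrocyte-lineage-like and 3% in the myeloid-like comparison. In the comparisons of phases and of differentiating cells it called 68% to 83%. False calls made up 14.3% of the simulated calls in the myeloid-like comparison. Intervals and limits from counts cover counting error only.

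The members and lists were chosen with earlier results of these data known. Values in every mouse are given for each member called, for the member of a complex with the most UMIs where it helps, and for Tsg101, Chmp4b, Chmp7, Vps4a, Vps4b, Pdcd6ip, Ptpn23, Sdcbp and Hgs. Of the partner genes called, at most 5 in a direction are named, and some results are not reported here.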

Additional observations from a re-analysis of the deposited data

Results flagged for a closer look

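Of 59 sets of 4 mice listed, those with few UMIs were not checked. In 1 of the sets checked, a mouse lay far from the others. Vps37b stood at 458 CPM over all analysed cells of mouse 3, against 391 to 399 CPM in the other 3 mice, and the gap was 0.870 of the whole range. Chance flags about 1 in 20 such sets. Mouse 3 had the shallowest library, 77.1% progenitor-like cells and 10% cells of the unnamed cluster. In its progenitor-like cells Vps37b stood at 455 CPM, against 399 to 419 CPM in those of the other mice. The part of depth and cell makeup in this value was not tested.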

How the results depend on the processing

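The 16 values called were recomputed under 206 alternatives in all: 162 kept the call, 44 lost it and 0 reversed direction. Chmp7 in differentiating cells, Tsg101 in differentiating G1 cells and Vps37b in oligodendrocyte-lineage-like and in myeloid-like cells kept theirs under each alternative run. The number of members called in G2M against G1 cells (3) was 1 with no replicate block and 0 by DESeq2, and in S against G1 cells (1) it was 0 under both. With no block 524 of all 6451 genes were called in G2M and 299 of 5843 in S against G1 cells. DESeq2 called 519 and 345 of the same genes. In differentiating against progenitor-like cells (6) it was 2 with no filter on low counts, 1 with no replicate block, 2 by DESeq2, 3 in cells with at most 5% mitochondrial UMIs, and 3 to 6 with a mouse left out. Over all genes the calls were 1353 of 15959 with no filter, 625 of 7502 with no block and 654 of 7502 by DESeq2. With the mitochondrial filter they were 1250 of 7271. Among G1 cells (2) it was 1 with no filter, 1 with no replicate block, 1 by DESeq2, 4 with phases called on cells thinned to 1000 UMIs, and 1 to 2 with a mouse left out. Over all genes the calls there were 503 of 14206 with no filter, 322 of 4036 with no block and 253 of 4036 (6.27%) by DESeq2. With thinned cells they were 638 of 4017. In oligodendrocyte-lineage-like cells (2) it was 1 by DESeq2, 1 with phase scores regressed out before clustering, and 1 to 2 with a mouse left out. Over all genes DESeq2 called 1071 of 7319 (14.6%), and 941 of 7249 were called with phase scores regressed out. In myeloid-like cells (2) it was 1 after cells under 30 Malat1 UMIs per 10000 were left out, which leaves 3 mice and fewer cells. With that filter 673 of 7630 genes were called. The cause of the other changes was not tested. Counting the unnamed cluster as progenitor-like, chosen after seeing the data, gave 4 in G2M and 1 in S against G1 cells, 5 in differentiating cells, 2 in their G1 cells, 0 in astroglia-like cells and 2 in each of the other classes. Leaving out the progenitor-like cluster led by Thrsp, also chosen after seeing the data, gave 2 in G2M against G1 cells and the same count in each other comparison. The count in G2M cells was 2 to 4 with a mouse left out, and the summed level of the 30 genes was 2400 to 2436 CPM. The stricter mitochondrial filter in oligodendrocyte-lineage-like cells and the Malat1 filter in astroglia-like cells were not run, since fewer than 3 mice kept enough cells.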

Other observations

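The unnamed cluster of 759 cells, 57.7% of them called G2M, was in no comparison. Its summed level of the 30 genes was 2230, 2276, 2301 and 2464 CPM in mice 1 to 4. These values lie near the 2312 to 2452 CPM of progenitor-like cells. In the 5 choroid plexus-like cells, which led with Ttr, Sdcbp stood at a pooled 516 CPM, a value with no replicates. Among differentiating cells Vps37b stood at 543, 284, 609 and 479 CPM in G2M cells of mice 1 to 4, against 524, 611, 710 and 478 CPM in G1 cells. It was lower in G2M cells of mice 2 and 3, while in mice 1 and 4 it was not. This difference was not tested.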
